A study of Mus musculus with 43 samples.

Results

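Neurons of the lateral nucleus accumbens that project to the ventral tegmental area (NAcLat→VTA cells) were separated by how much *Nts* mRNA each held, and the transcriptomes of *Nts*-high and *Nts*-low cells were compared. Members were chosen by measured *Nts* alone. A cell was *Nts*-high at 200 CPM (counts per 1000000 counts of that cell) or more and *Nts*-low below 50 CPM, which placed 22 and 15 of the 43 cells in the groups. The 6 cells between the limits were left out of the comparison. Its difference between the groups is given as a description, and *Nts* was removed before other genes were compared.

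Each library came from 1 mouse neuron whose cytosol was drawn into the pipette after a patch-clamp recording. Retrograde beads injected in the VTA marked the cells, and mice were kept on a regular diet (REG, labelled NORM) or a chronic high-fat diet (HFD). The labels give the diet and a batch, with 13 REG and 5 HFD cells in batch 1 and 10 REG and 15 HFD cells in batch 2, and no age, strain or genotype. No label ties a cell to its mouse, so cells could not be used as replicates. Each group was treated as 1 sample, and no test between groups, p-value or standard error was derived. In such data, less RNA recovered from a cell and lower expression of a gene cannot be told apart.

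*Nts* encodes the precursor of neurotensin, a peptide that is cut out of its precursor in dense core vesicles and released from GABAergic accumbens neurons onto the VTA, where it excites dopamine neurons. The *Nts* promoter is known for joint control by AP-1 factors (dimers of Fos and Jun proteins), a cAMP response element and glucocorticoids, so transcription of the peptide can follow neuronal activity and cAMP. Most accumbens projection neurons are medium spiny neurons, which carry either the D1 or the D2 dopamine receptor.

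*Nts* (ENSMUSG00000019890) lies on the minus strand at chr10:102481756-102490486 (GRCm38). The RefSeq promoter of the same build held 1 AP-1 motif (TGAGTCA or its reverse complement TGACTCA), starting 207 bases before the RefSeq start. A CRE-like motif (TGACATCA or TGATGTCA) started 67 bases before it. The full CRE palindrome TGACGTCA was not among the letters of this window. Of 32851 RefSeq promoters of the same length, read on both strands, 5.202% held the AP-1 motif, 3.62% the CRE-like motif and 1.79% the CRE. The stretches below are shown because some AP-1 genes (*Fos*, *Jun* and *Fosb*) are among the genes reported further on. Whether these motifs bear on *Nts* in these cells was not tested. They run 5′ to 3′ on the minus strand, with the motifs in capitals. The first ends where the annotated transcript begins (chr10:102490487-102490668), and the second surrounds the CRE-like motif (chr10:102490467-102490496).
*Nts* upstream region: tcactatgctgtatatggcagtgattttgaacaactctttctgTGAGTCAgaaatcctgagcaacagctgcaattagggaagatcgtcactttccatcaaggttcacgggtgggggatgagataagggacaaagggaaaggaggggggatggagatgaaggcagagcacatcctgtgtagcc
*Nts* CRE-like site: ctgtgtagccaTGACATCAtcctcctgctc

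*Nts* spanned the whole range from no count to 3107 CPM. In *Nts*-high cells it ran from 203 CPM to 3107 CPM with a median of 728 CPM, and in *Nts*-low cells from 0 to 38.7 CPM with a median of 4.90 CPM. The low group included 3 cells with no *Nts* count at all. Just inside the upper limit was HFD cell 18 at 203 CPM and just outside it REG cell 11 at 186 CPM. At the lower limit these were HFD cell 7 at 38.7 CPM and HFD cell 15 at 69.8 CPM.

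**Figure D1:**
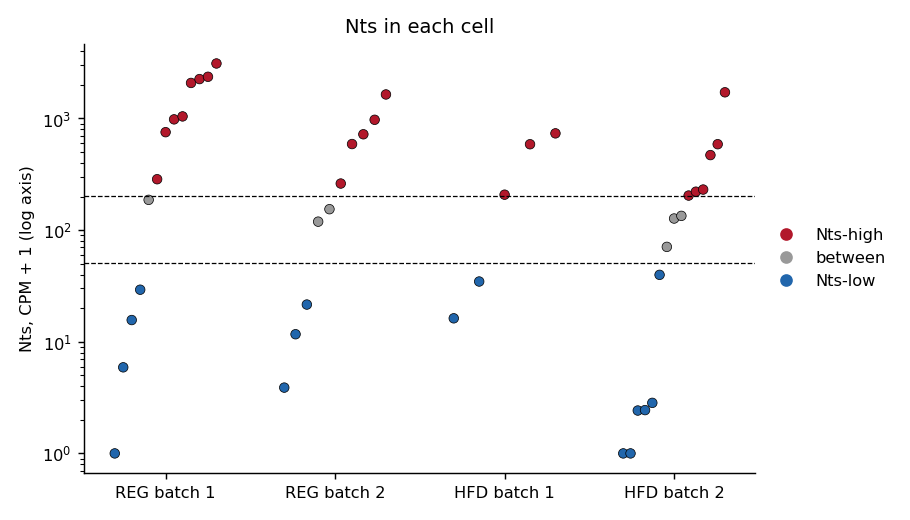
*Nts* in each of the 43 cells (CPM + 1, log axis), ordered within diet and batch, with dashed lines at the 50 and 200 CPM limits. Cells of both diets and both batches lie above and below the limits, with the highest at 3107 CPM.

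Both groups drew on both diets and both batches. Of REG cells, 13 of 23 were *Nts*-high (56.5%, exact 95% binomial interval 34.5% to 76.8%), and of HFD cells 9 of 20 (45.0%, 23.1% to 68.5%). By batch, 11 of 18 cells were *Nts*-high in batch 1 (61.1%, 35.7% to 82.7%) and 11 of 25 in batch 2 (44.0%, 24.4% to 65.1%). These intervals overlapped. They treat cells as independent draws, leave out the spread between mice, and so do not compare diets or batches. Within the *Nts*-high group the level was spread differently by diet, from 260 to 3107 CPM with a median of 981 CPM among those on REG and from 203 to 1714 CPM with a median of 469 CPM among those on HFD.

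Depth and the number of genes detected differed between the groups. *Nts*-high cells held 339992 to 16919555 estimated counts (median 1579236) and *Nts*-low cells 176961 to 8242048 (median 1386338), and 5 low cells and 2 high cells were under 500000 counts. Those 5 low cells had 4 to 10 *Nts* counts each. More genes had a count in *Nts*-high cells, with a median of 11193 (7194 to 14279) against 8695 (6143 to 13305). After thinning of each cell to 150000 counts the medians were 8000 and 6721 genes. *Lars2* alone took a median of 24.9% of counts in high and 26.1% in low cells, and 79.8% in HFD cell 8, a low cell. The part of depth and of RNA recovery in the gene differences was not tested.

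**Figure D2:**
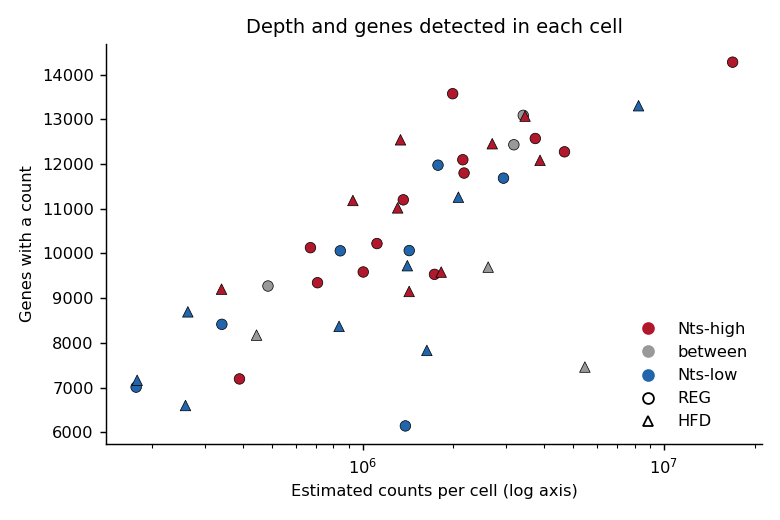
Genes with a count (linear axis) against estimated counts per cell (log axis), by *Nts* group (colour) and diet (shape). *Nts*-low cells make up 5 of the 7 group members under 500000 counts, and the groups overlap along both axes.

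Both groups held counts of D1 medium spiny neuron markers, though some cells held very few. *Drd1* (the D1 receptor), *Gad1* and *Gad2* (which make GABA), *Tac1* and *Pdyn* had a count in all 22 high and all 15 low cells. The lowest *Drd1* value was 2.56 CPM in high and 0.721 CPM in low cells, and the lowest *Pdyn* value 100 and 2.84 CPM. Of 7 D1 marker genes compared, 2 (*Isl1* and *Slc35d3*, given further on) were at a log2 ratio of 1 or more, beside 20.9% of all genes. *Drd1* ran from a mean of 227 CPM in high cells to 252 CPM in low cells, a log2 ratio of -0.15 that changed sign with 1 cell left out. The log2 ratio was -0.32 for *Gad1*, 0.10 for *Gad2*, 0.39 for *Tac1* (the substance P precursor) and 0.32 for *Pdyn* (the dynorphin precursor). *Drd2* (the D2 receptor) had a count in 5 high cells and 4 low cells, at means of 4.85 and 3.93 CPM. None of the 15 genes shared by all medium spiny neurons was past a log2 ratio of 1 in either direction. Of all genes compared, 20.9% were at 1 or more and 9% at -1 or less. The median log2 ratio of the 15 was 0.43, against 0.25 over all genes. Cells of both groups overlapped in each of the 5 markers with a count throughout.

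Across the transcriptome the ratio of the mean CPM of *Nts*-high cells to that of *Nts*-low cells was taken for 10801 genes. Its median on the log2 scale was 0.25 rather than 0, so the typical gene was slightly higher in *Nts*-high cells, and values below are read against that median. A log2 ratio of 1 or more was found for 2257 genes (20.9% of those compared) and of -1 or less for 972 genes (9%). Genes in the higher direction made up 69.9% of those past the limit, which became 56.1% with DESeq2 size factors and 94.3% with the difference of mean log2(CPM + 1). The sign was the same in REG cells, HFD cells, batch 1, batch 2 and with any 1 cell left out for 1812 of the higher genes (16.8% of those compared) and 455 of the lower genes (4.21%). Since the whole is made of those subsets, this count describes evenness and is no independent repeat.

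Batches 1 and 2 share no cells, and their ratios were nearly unrelated. Over 10794 genes with a ratio in both, Spearman's rho between the batches was 0.02, and 51.1% of genes had the same sign. Of 2905 genes at least 2-fold higher in batch 1, 39.0% were also that much higher in batch 2, against 33.5% of all genes. For genes at least 2-fold lower the share was 14.4% against 11.8%. Between diets, rho was 0.07 over 10795 genes. Of the genes higher in REG cells 32.4% were higher in HFD cells, where 26.7% of all genes were. For lower genes this was 23.4% against 16.8%. Most single-gene ratios between *Nts*-high and *Nts*-low cells therefore did not recur in cells that had not supplied them. Within-batch ratios are therefore given for list members past the limit.

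**Figure D3:**
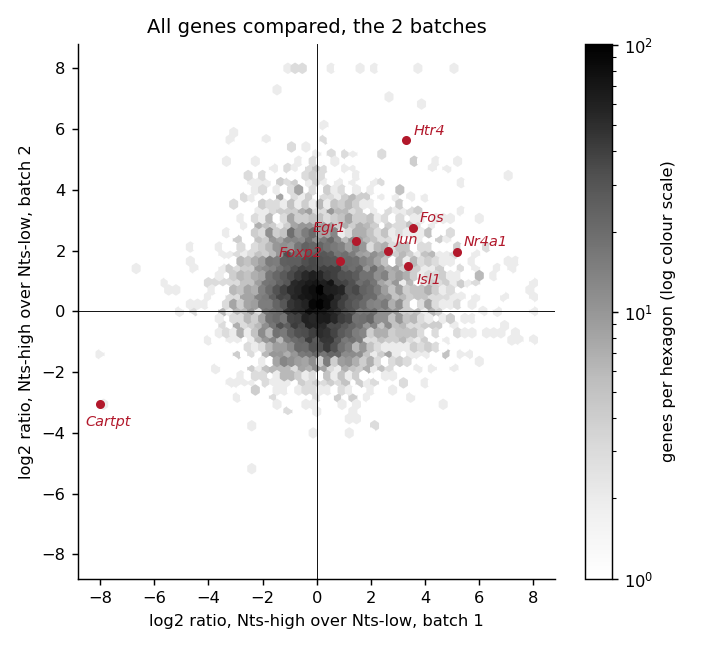
Log2 ratio of *Nts*-high over *Nts*-low mean CPM in batch 1 (horizontal) and batch 2 (vertical) for the 10794 genes with both, as genes per hexagon, with values past 8 drawn at 8. The cloud has almost no slope (rho 0.02), and *Fos*, *Jun*, *Egr1*, *Nr4a1*, *Htr4*, *Isl1* and *Foxp2* lie up and to the right of the centre.

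*Fos*, *Jun*, *Fosb*, *Egr1*, *Nr4a1* and *Dusp1*, which neurons induce when active, were at a log2 ratio above 1 in both batches. Others of this kind, such as *Egr4* and *Rheb*, were not. *Fos* (chr12:85473890-85477273, plus strand), whose protein is a subunit of AP-1, had a lowest value of 0, a median of 275 CPM and a highest value of 2000.2 CPM in *Nts*-high cells. In *Nts*-low cells these were 0.681, 5.65 and 393 CPM. The groups overlapped, but 83.03% of pairs of a high and a low cell had more *Fos* in the high cell. The log2 ratio of means was 2.71, at 3.54 in batch 1 and 2.75 in batch 2, and at 2.99 on REG and 2.49 on HFD. From summed counts *Fos* stood at 403 CPM (exact 95% Poisson interval 398 to 409) against 59.1 CPM (56.1 to 62.3), where the intervals cover counting error only. The 6 cells between the *Nts* limits had a mean of 180 CPM *Fos* (median 61.8 CPM), between the group means of 437 and 67.0 CPM. Their mean also lay between the group means for *Egr1* and *Nr4a1*. It was above both for *Jun* (177 CPM) and below both for *Fosb* (27.6 CPM), *Egr4* (121 CPM) and *Dusp1* (172 CPM). With each cell thinned to 150000 counts, *Fos* still had a count in 21 of 22 high cells and 8 of 15 low cells. Over every alternative run, its log2 ratio stayed between 2.03 and 3.66, that of *Jun* between 1.80 and 2.62, that of *Egr1* between 1.13 and 2.33 and that of *Nr4a1* between 1.29 and 5.16.

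Of the other AP-1 subunits, *Jun* and *Fosb* were past the limit. *Jun* (chr4:95049034-95052222, minus strand) ranged from 0 to 736 CPM in high cells with a median of 87.7 CPM, and from 0 to 143 CPM in low cells with a median of 12.01 CPM. Its log2 ratio was 2.06, at 2.62 in batch 1 and 1.98 in batch 2. *Fosb* had medians of 61.7 and 13.3 CPM and a log2 ratio of 1.46, at 2.13 and 1.42 by batch. *Junb*, *Jund* and *Fosl2* did not reach the limit, at log2 ratios of 0.50, -0.22 and -0.16. Among CREB factors and their coactivators, *Crtc3* was at 2.22 (1.85 and 2.53 by batch) and *Creb1* at 0.75. *Crtc2* was at 1.45, with 0.53 and 2.20 by batch and -0.26 within HFD cells. Of 16 AP-1 and CREB family genes compared, 5 were at 1 or more and none at -1 or less, beside 20.9% and 9% of all genes, and the median was 0.45.

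Immediate-early genes that neurons induce together with *Fos* differed among themselves. *Egr1*, an immediate-early transcription factor, ran from 16.1 to 2192 CPM in high cells (median 251 CPM) and from 11.3 to 315 CPM in low cells (median 88.0 CPM). Its log2 ratio was 1.98, at 1.46 in batch 1 and 2.33 in batch 2. *Nr4a1*, an orphan nuclear receptor, had medians of 69.7 and 2.04 CPM and a count in all 22 high cells but 10 of 15 low cells. Its log2 ratio of 2.11 was 5.16 in batch 1 and 1.97 in batch 2. *Egr4* was at 1.16, with 0.89 and 1.40 by batch. *Dusp1*, which turns off MAP kinases, was at 1.05, with 1.14 and 1.10 by batch but 0.30 within HFD cells and 0.80 without REG cell 2. *Rheb*, a small GTPase, had means of 148 CPM in high and 74.1 CPM in low cells, a log2 ratio that reached the limit and was 0.25 in batch 1, 1.82 in batch 2 and 0.71 without HFD cell 3. *Arc* (0.62), *Npas4* (0.68), *Homer1* (0.63) and *Nr4a3* (0.44) stayed under the limit, *Bdnf* was at -0.70 and *Inhba* at -2.70, the latter at 0.61 without HFD cell 13. In all, 5 of 15 activity-regulated genes compared were at 1 or more with their sign in every subset, where 16.8% of all genes were, and 1 (*Inhba*) was at -1 or less without one sign in every subset. Of the 15, 4 were below 0, and the median of 0.63 was 0.76 in either batch. The medians of all genes were 0.15 in batch 1 and 0.48 in batch 2.

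**Figure D4:**
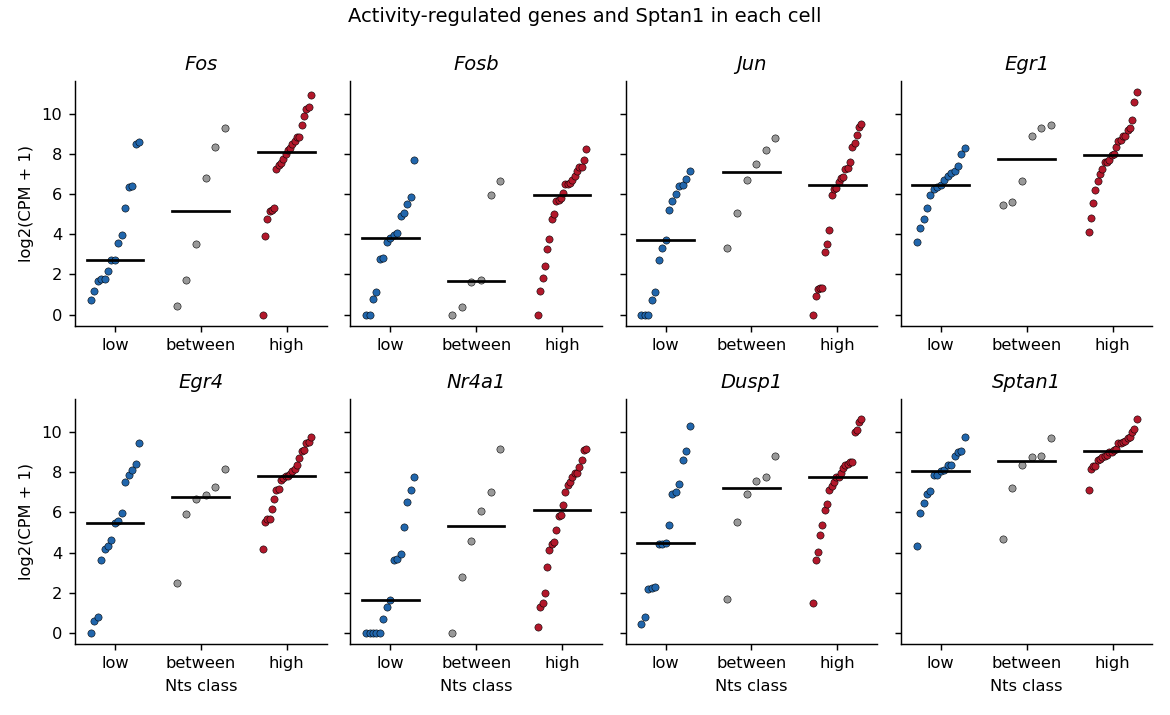
Log2(CPM + 1) of 7 activity-regulated genes and *Sptan1* in each *Nts*-low (15), between (6) and *Nts*-high (22) cell, with the median as a line. *Fos* medians are 5.65 CPM in low and 275 CPM in high cells, and the groups overlap for every gene shown.

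Transcription factors and receptors that mark subsets of accumbens cells gave a mixed picture. *Foxp2*, a transcription factor, had a count in every cell of both groups, with 70.7 to 1112 CPM (median 307 CPM) in high and 10.1 to 729 CPM (median 80.0 CPM) in low cells. Its log2 ratio was 1.25, at 0.84 and 1.66 by batch. *Isl1*, a transcription factor of the D1 lineage, had a count in 21 of 22 high and 10 of 15 low cells, and its ratio was 1.83, at 3.36 and 1.49 by batch. *Slc35d3*, needed for D1 receptor traffic, was at 1.66, with 1.38 and 1.91 by batch. *Htr4*, a serotonin receptor coupled to cAMP production, had a count in 19 of 22 high cells (exact interval 65.1% to 97.1%) and 4 of 15 low cells (7.79% to 55.1%). Its means were 69.5 and 3.80 CPM, a log2 ratio of 4.19, at 3.31 in batch 1 and 5.64 in batch 2. After thinning it had a count in 16 high and 3 low cells. *Htr4* was over 15 CPM in 11 high cells and 1 low cell, so it passed the filter through high cells. The intervals treat cells as independent draws, leave out the spread between mice, and do not compare the groups. *Pde1c* was at 1.23 (1.21 and 1.30 by batch) and at 0.84 without REG cell 9. *Dlk1* was at -1.15 (-1.53 and -0.75) and at -0.40 without REG cell 7. Of 18 subtype and subregion genes compared, 4 were at 1 or more and 1 at -1 or less, shares near the 20.9% and 9% of all genes. Their median was -0.23, and *Calb1*, *Crym* and *Wfs1* were at 0.74, -0.15 and 0.29.

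No dopamine or cAMP signalling gene reached 2-fold in either direction. Of all genes, 20.9% were at least 2-fold higher and 9% at least 2-fold lower. Of the 19 signalling genes compared, 16 had a log2 ratio above 0, as did 6596 of all 10801 genes. The median was 0.51 against 0.25 over all genes, and by batch 0.28 against 0.15 and 0.53 against 0.48. *Rgs2*, which dampens G protein signals, was at 0.87, *Prkar1a*, a regulatory subunit of protein kinase A, at 0.71, and *Adcy5*, the main striatal adenylyl cyclase, at 0.66.

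Other neuropeptide precursors did not follow *Nts*. Of 35 listed, 10 passed the filter besides *Nts*, 5 with a ratio above 0 and 5 below, with a median of 0.03. *Penk* (enkephalin), with 69.4% of its summed CPM in high cells from 1 cell, was at 0.25 over all cells but -2.89 in batch 1 and 1.98 in batch 2. *Cartpt* was lower, at means of 5.26 and 93.8 CPM (log2 ratio -4.16), and had a count in 6 of 22 high and 5 of 15 low cells. Its ratio was -0.20 in REG cells and -3.83 in HFD cells, with -8.32 and -3.06 by batch, and both group medians were 0. The filter kept a peptide that is high in a few cells of 1 group, so these counts describe the 10 genes and not the full list.

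Among genes for making and releasing peptides, 4 of 23 compared were at 1 or more with their sign in every subset, a share near the 16.8% of all genes. At -1 or less were 2, of which 1 (*Resp18*) had one sign in every subset, as had 4.21% of all genes. *Scg3*, a granin that sorts cargo into dense core vesicles, had medians of 45.1 and 0.681 CPM and a log2 ratio of 2.35, at 2.15 and 2.57 by batch. *Syt4*, a vesicle synaptotagmin, was at 1.64, with 0.71 and 2.23 by batch. The cathepsin gene *Ctsl* was at 1.20 (1.28 and 1.01 by batch), but REG cell 2 supplied 46.5% of the high group's CPM, and the ratio was 0.36 without it and 0.39 within HFD cells. The secretase gene *Bace2* was at 3.46 (2.30 and 4.30 by batch) with a count in 13 of 22 high and 9 of 15 low cells. With ties split evenly between the groups, the share of pairs with more *Bace2* in the high cell was 51.8%, so few cells carried the ratio. *Resp18* was at -1.46 (-2.94 and -0.74 by batch), with a count in 9 of 22 high and 6 of 15 low cells, and at -0.30 without HFD cell 11. *Ptprn2* was at -1.33 but at 2.85 within REG cells, and at 0.19 without HFD cell 13. *Chga* stood at 0.94 and *Vgf* at 0.79. The convertase gene *Pcsk2* was at 0.05, and *Cpe* and *Pam*, which finish peptide ends, were at -0.94 and -0.62. Of the neurotensin receptors, *Ntsr1* had no count in any cell. *Ntsr2* had a count in 9 high and 3 low cells at means of 12.7 and 26.6 CPM. *Sort1* (sortilin) had medians of 135 and 44.4 CPM but a log2 ratio of means of -0.24, since 1 low cell held 1826 CPM, 62.3% of the summed CPM of the low group.

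Genes for receptor subunits passed the limit about as often as all genes did. Of 14 glutamate receptor genes 3 were at 1 or more, and of 13 GABA-A receptor genes 2, beside 20.9% of all genes, with medians of 0.22 and 0.23. The AMPA receptor gene *Gria3* was at a log2 ratio of 1.14 (0.52 and 1.76 by batch) and *Gria4* at 2.63 (3.28 and 1.31). The kainate receptor gene *Grik2* was at 1.07 (0.62 and 1.47), while *Gria1*, *Gria2* and *Grin1* were at 0.59, 0.39 and -0.02. Of GABA-A receptor genes, *Gabra3* was at 2.53 (4.47 and 2.44), and 1 low cell held 89.3% of its summed CPM in that group. *Gabra5* was at 1.26 (0.24 and 2.10), and at 0.84 without REG cell 19. Among 28 receptors for peptides and feeding hormones, 8 passed the filter and 2 were at 1 or more. *Npy1r*, a neuropeptide Y receptor, had a count in 19 of 22 high and 7 of 15 low cells and a log2 ratio of 2.38, at 7.28 in batch 1, where the low mean was 0.186 CPM, and 2.16 in batch 2. *Sstr2*, a somatostatin receptor, was at 3.02 (3.71 and 3.06 by batch) with a count in 10 high and 5 low cells. *Oprk1* and *Mchr1* were at 0.73 and -0.90.

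Ribosomal protein and nuclear respiratory chain genes were mostly within the limits, while genes of the mitochondrial genome were lower in *Nts*-high cells. Of all genes compared, 20.9% were at 1 or more and 9% at -1 or less. Of 29 cytosolic ribosomal protein genes, none was past either limit, with a median of -0.15, and of 26 nuclear respiratory chain genes only *Atp5d* was, at 1.06 (1.52 and 0.60 by batch). All 13 genes encoded by mitochondrial DNA were below 0, as were 4205 of all 10801 genes. The 13 had a median of -0.76, at -0.40 in batch 1 and -0.90 in batch 2. Their summed level ran from 2277 to 20845 CPM in high cells (median 6884 CPM) and from 1937 to 63135 CPM in low cells (median 10636 CPM). The share of counts from mitochondrial DNA had medians of 0.69% in high, 1.06% in low and 2.01% in the 6 between cells. It thus did not fall steadily with *Nts*, and its rho with *Nts* CPM was -0.17 over all cells and -0.01 within HFD cells. *mt-Nd3* was at -1.34 (-0.67 and -1.34 by batch) and at -0.79 without HFD cell 7. *mt-Nd5* was at -1.02 (-0.79 and -1.31), but at -0.15 within HFD cells and at -0.40 without REG cell 16, the low cell with the largest share of mitochondrial counts (6.31%). Of 16 endoplasmic reticulum folding genes, 3 were at 1 or more and 1 at -1 or less, beside 20.9% and 9% of all genes. The median of the 16 was 0.39. *Dnajc3* was at 1.16 (0.31 and 1.98 by batch), *Sdf2l1* at 5.80 (5.04 and 4.96) and *Pdia3* at -1.12 (-1.45 and -0.85), the last at -0.75 without HFD cell 20. *Sdf2l1* had a count in 8 of 22 high cells and 1 of 15 low cells.

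Markers of other cell types were present in both groups, with a summed level of up to 3329 CPM in 1 low cell. The summed CPM of 8 astrocyte genes ran from 10.5 to 769 in high cells and from 70.8 to 1154 in low cells, with medians of 257 and 394 and means of 276 and 500.2. *Slc1a2* was at a log2 ratio of -1.10 (-1.44 and -0.82 by batch) and at -0.74 without REG cell 3, and *S100b* was at -0.98. *Slc1a3* was at 1.28 but at 0.052 without REG cell 19, and *Gja1* at 0.46. The summed CPM of 7 microglial genes had medians of 71.4 (0 to 1389) in high and 56.8 (0.341 to 1245) in low cells. The 6 endothelial genes summed to 18.6 to 1943 CPM in high and 62.9 to 3329 CPM in low cells (means 360 and 697 CPM), nearly all from *Pecam1*, with *Ly6c1* at 0 in every cell. For 10 interneuron genes the medians were 41.0 (0.589 to 367) and 33.9 (0 to 574) CPM, and for 3 glutamatergic genes 3.996 (0 to 19.2) and 3.81 (0 to 39.0) CPM. The part of other cells' RNA in the gene differences was not tested.

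**Figure D5:**
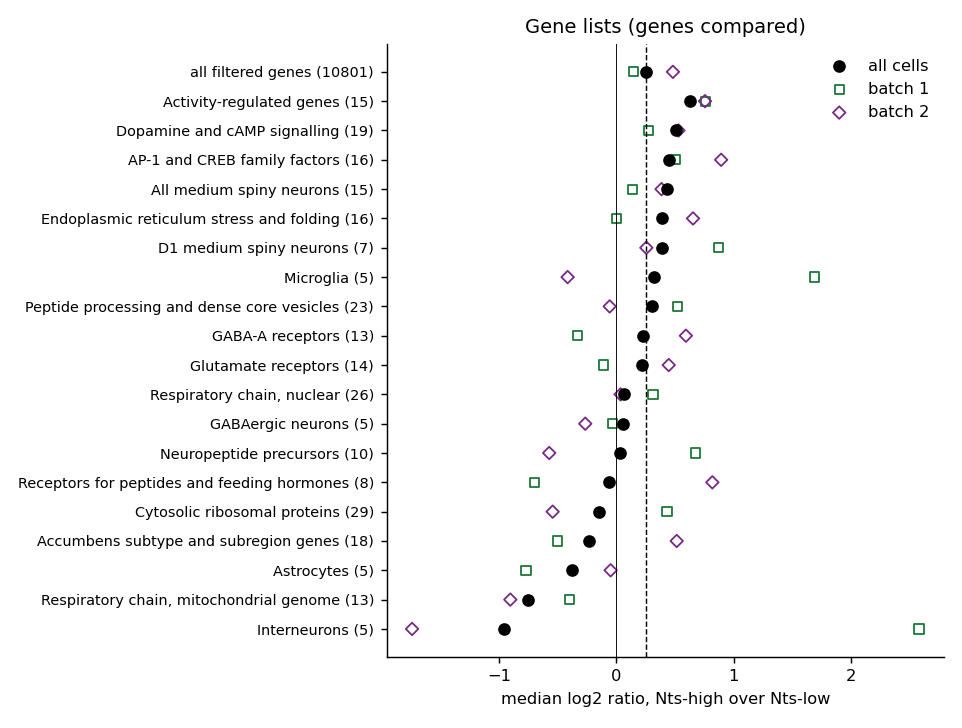
Median log2 ratio of *Nts*-high over *Nts*-low mean CPM for each gene list with 5 or more genes compared (number in brackets), over all cells, batch 1 and batch 2, with the median of all genes (0.25) dashed. Activity-regulated genes have the highest list median over all cells (0.63) and interneuron genes the lowest (-0.96), and many lists change sides between batches.

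Among genes with one sign in every subset and a count in at least 50% of the cells of the higher group, the largest ratios belonged to genes that most *Nts*-low cells lacked and few *Nts*-high cells held at a high level. A gene could pass the filter through cells of 1 group alone, so the filter favours such patterns. The ratios at either end therefore describe these genes only. *Zbtb48*, a zinc finger gene of telomere length control, had a count in 12 of 22 high cells and in none of 15 low cells, which allows a share of up to 21.8% (exact 95% interval), and 1 high cell held 66.3% of its summed CPM. From summed counts it was at least 599-fold higher in the high group than the level that 3 counts over the low group would give. *Zfp53*, also without a count in low cells, followed a like pattern with a count in 11 high cells. The other genes of the 10 largest were *Trp53bp2* (log2 ratio 8.86), *Gm45062* (8.41), *Tmem129* (8.34), *Gpr171* (7.05), *Zbtb41* (7.04), *Coasy* (6.81), *Arhgap42* (6.35) and *Sil1* (6.05). Over these 8 the ratios ran from 2.66 (*Zbtb41*) to 9.41 (*Gpr171*) in batch 1 and from 4.47 (*Arhgap42*) to 10.9 (*Trp53bp2*) in batch 2, and the lowest with 1 cell left out was 5.23 (*Zbtb41*, without REG cell 19). *Sil1*, a nucleotide exchange factor for the chaperone BiP, was the broadest of them. It had a count in 19 of 22 high cells and 5 of 15 low cells. With ties split evenly between the groups, 85.5% of cell pairs had more *Sil1* in the high cell. That share largely follows from its choice by ratio and is no separate result.

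Under the same limits, the genes at the other end were likewise carried by few cells. *Tuba1c*, a tubulin, was at a log2 ratio of -5.58 and *Cd9*, a tetraspanin, at -5.39. *Cd9* had a count in 12 of 15 low and 8 of 22 high cells, and 1 low cell held 77.5% of its summed CPM in that group. *Inpp5b* (-3.76), *Cxcl2* (-3.73), *Nhlrc1* (-3.61), *Yju2* (-3.56), *Ccl9* (-3.31), *Zcwpw1* (-3.14), *Ipcef1* (-3.11) and *Kcnip4* (-3.04) completed the 10. *Cartpt*, at -4.16, had a count in too few low cells to be among them. In batch 1 the 10 ran from -10.6 (*Cxcl2*) to -0.96 (*Ccl9*) and in batch 2 from -7.22 (*Cd9*) to -1.32 (*Yju2*). Leaving out 1 cell moved *Inpp5b* to -1.46 (HFD cell 2, with 81.1% of the summed CPM of the low group), *Zcwpw1* to -1.80 (HFD cell 13), *Ipcef1* to -1.96 (REG cell 22) and *Cd9* to -3.34 (REG cell 16). It took *Yju2* to -5.96 (HFD cell 9) and *Cxcl2* to -5.62 (HFD cell 16). *Cxcl2*, a chemokine, turned to 1.35 when only cells with at least 8000 genes were kept. In the 6 cells between the limits, the mean lay between the group means for 8 of the 10 largest and 6 of the 10 smallest ratios, and for 860 of the 1812 and 160 of the 455 genes with one sign in every subset.

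Genes that tracked *Nts* cell by cell were broader. Spearman's rho was taken over all 43 cells, which differ in depth and batch. The highest rho with *Nts* CPM belonged to *Ipo9*, a nuclear import receptor (0.64), *Gtf2ird2* (0.61), *Nsmce3* (0.60) and *Dicer1*, which matures microRNAs (0.60). Next were *Sirt1*, a deacetylase (0.60), *Epha4*, an ephrin receptor (0.60), and *Sptan1*, the spectrin of the neuronal membrane skeleton (0.58). They were followed by *Dbn1*, the spine protein drebrin (0.58), *Sil1* (0.58) and *Ugdh* (0.58). The median over all genes was 0.12, and *Nts* itself had a rho of 0.27 with the number of genes detected. After thinning, *Ipo9* was at 0.65, *Epha4* at 0.60, *Sptan1* at 0.52 and *Dicer1* at 0.40. *Sptan1* had a count in every cell of both groups, from 136 to 1595 CPM (median 542 CPM) in high and from 19.2 to 860 CPM (median 269 CPM) in low cells, and 81.8% of pairs had more in the high cell. *Ipo9* had medians of 56.4 and 11.2 CPM, and 91.5% of pairs had more in the high cell. *Sptan1* and *Ipo9* were picked for their rho with the *Nts* CPM that also sets the groups. Their medians and shares of pairs largely follow from that choice and are no separate result. As the highest of all genes compared, the listed rho values are also raised by selection, to an extent that was not tested. The lowest rho belonged to *D230025D16Rik* (-0.47), *Pou3f1*, a POU domain factor (-0.46), *Yju2* (-0.46), *Cops6* (-0.45) and *Ado* (-0.44). *Fos* was at 0.50, with 0.57 in batch 1 and 0.65 in batch 2, and *Htr4* at 0.52.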

How the data were processed

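Per the labels and the study's methods, the authors reverse-transcribed and amplified poly(A) RNA of single neurons, sequenced Nextera XT libraries, mapped the reads with kallisto (GRCm38 transcripts), and dropped cells whose reads or genes fell far under the median. The deposited tables hold estimated counts without normalization and TPM computed by the authors, for 35825 genes, and 65.5% of nonzero counts are within 0.01 of an integer. Amplified reads without molecular identifiers are not independent molecules, so Poisson intervals cover counting error only. Binomial intervals on numbers of cells treat cells as independent draws and leave out the spread between mice.

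CPM was the count over the cell's total, times 1000000. Genes were kept at a CPM above 15 in at least 5 cells with a mean above 4, and *Nts* was removed, leaving 10801. Ratios are mean CPM over 22 *Nts*-high cells against mean CPM over 15 *Nts*-low cells, on the log2 scale. Where a group lacked counts, its sum was taken as 3 and the ratio as that of summed counts per summed totals, and a gene at 3 counts or fewer in both groups got no ratio. A ratio is called past the limit at 1 or -1. In shares of cell pairs, ties were split evenly between the groups. Genes named were the 10 largest and 10 smallest ratios with one sign across diets, batches and every omission of 1 cell and a count in 50% of cells of the higher group, the 10 highest and 5 lowest rho with *Nts*, list members past the limit over all cells whose sign held in every subset, and dopamine receptor, GABA, tachykinin, opioid and neurotensin receptor genes. Other genes named beside them as examples of a list were chosen after their values were seen. Of 24 gene lists, 1 is not reported here. The members and lists were chosen with earlier results of these data known. Thinning drew 150000 counts per cell with a fixed seed. Ratios were tested on simulated data. Software was Python 3.11.15, pandas 2.3.3, scipy 1.17.1, R 4.3.3, edgeR 4.0.16 (TMM factors) and DESeq2 1.42.0 (size factors). No test between groups was run. Gene positions came from GENCODE of the same build, and promoter sequence from RefSeq (GRCm38.p6). Alternatives covered TPM, other scaling factors, totals without *Lars2*, summed counts, a log scale, thinning, other filters, other *Nts* limits, each diet and batch, and each cell left out. Restriction to cells of at least 500000 counts or 8000 genes was added after seeing the data.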

Additional observations from a re-analysis of the deposited data

Results flagged for a closer look

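Dixon's outlier rule was applied to 12 sets of cells and measures, in groups of 4 to 10 cells. In 3 of them a cell lay far from its neighbours. The rule's rate of about 1 in 20 holds for normally distributed values. Whether these values are so distributed was not tested, so the 3 are not set against chance. HFD cell 20, an *Nts*-low cell with no *Nts* count, held 8242048 estimated counts, while the other 7 low HFD cells held 178341 to 2078864. REG cell 16, also *Nts*-low, had 6.31% of its counts from mitochondrial DNA, against 0.292% to 2.004% in the other 6 low REG cells. HFD cell 13, *Nts*-low, had 3.42%, against 0.194% to 1.396% in the other 7 low HFD cells. No cause was tested for any of the 3.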

How the results depend on the processing

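No paired analysis was possible because no label links 1 cell to another. Over all genes compared, 2257 were higher and 972 lower, and leaving out 1 cell at a time gave 2051 to 2668 higher and 884 to 1126 lower genes, a median log2 ratio of 0.16 to 0.33 and a difference in genes detected of 1982 to 2638. The median of 0.25 was 0.36 with TPM, 0.060 with DESeq2 size factors and 0.60 as a difference of mean log2(CPM + 1), and 0.39 within REG cells, 0.15 within batch 1 and 0.48 within batch 2. Higher genes numbered 3511 within REG cells and 3619 within batch 2, and lower genes 1816 within HFD cells and 1976 within batch 1. Lower genes were 1485 with summed counts, 200 as a difference of mean logs and 508 with a filter at 10 cells, and without a filter 5598 genes were higher and 3785 lower. Genes with one sign in every subset were 2781 higher and 156 lower as a difference of mean logs, 2910 and 854 without a filter, 709 lower with DESeq2 size factors and 273 lower with a filter at 10 cells. Other alternatives left these counts within 1.5 times and the median within 0.1, and the correlation between batches moved by less than 0.1 under each. Of single genes past the limit, *Ntsr2* turned from -1.07 to 0.30 as a difference of mean logs, 0.028 within HFD cells, 2.67 within batch 1 and 0.63 as the mean of the within-batch ratios, and ranged from -1.90 to 0.070 with 1 cell left out, the last without REG cell 16. *Pou3f1* turned from -1.85 to 0.91 within HFD cells, *Ado* from -1.09 to 0.081 within batch 1, and *Cxcl2* from -3.73 to 1.35 in cells of at least 8000 genes, a setting chosen after seeing the data. The cause was not tested. With the mouse of no cell known, neither the spread between mice nor a difference between diets in the *Nts* groups can be told.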
